A study of Mus musculus with 6 samples.

Results

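Transcripts of 10 genes of polyamine metabolism were followed in mouse fetal liver cells as they matured in culture. The genes were chosen by name for their place in the pathway, with earlier results of these data known. They are Odc1, Amd1, Srm and Sms, which encode the synthesis enzymes, Oaz1, Oaz2 and Azin1, which encode regulators of ornithine decarboxylase, and Sat1, Smox and Paox, which encode enzymes of acetylation and oxidation. They are 10 of 54232 genes listed and 10 of 16150 that passed the filter on low counts. All 6 libraries came from C57/B6 embryos at E13.5, from liver cells depleted of those carrying Ter-119, an antigen that appears on the surface of red cells as they mature. In the 30 h group (3 libraries) the depleted cells had been cultured in medium with erythropoietin (EPO), the hormone that drives red cell production, and had received the solvent DMSO at 24 h for the last 6 h. The day 0 group (3 libraries) is the purified population without treatment. The series concerns the nucleus and chromatin in terminal erythropoiesis, and its 30 h DMSO cells are the solvent control for a caspase inhibitor, whose libraries were not analysed here. Time in culture, EPO and DMSO therefore change together between the groups and cannot be told apart. The labels do not state whether replicate libraries are separate embryos or cultures, so the p-values may measure technical spread only.

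Polyamines (putrescine, spermidine and spermine) are small positively charged molecules that bind RNA and chromatin and are needed for cell growth. Ornithine decarboxylase makes putrescine, and spermidine synthase and spermine synthase then add aminopropyl groups taken from decarboxylated S-adenosylmethionine. Antizymes, whose own translation is switched on by polyamines, bind ornithine decarboxylase and send it to the proteasome, and antizyme inhibitor takes the antizyme away. Spermidine also supplies the hypusine residue of the translation factor eIF5A, a modification linked to erythroid maturation in human progenitors. The breakdown arm acetylates or oxidises spermidine and spermine back to shorter polyamines.

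The antizyme messages carry the sequence through which polyamines act on antizyme translation, and it is shown for Oaz1 and Oaz2. A link between this sequence and the RNA changes given below was not tested. The ribosome has to skip a base at a stop codon near the start of the reading frame (+1 frameshifting) to make the full protein. Each window below has 30 bases around that place on the plus strand of GRCm38, with the TCC codon and the TGA stop in capitals.
Oaz1, chr10:80828280-80828309: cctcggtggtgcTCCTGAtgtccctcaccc
Oaz2, chr9:65686257-65686286: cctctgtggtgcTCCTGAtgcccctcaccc
The windows were identical at 28 of 30 bases. In the annotation, 68 codons precede the stop in Oaz1 and 32 in Oaz2. RNA counts do not show how often the frame was shifted.

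Upstream sequence from RefSeq (GRCm38.p6) was found for 8 of the 10 genes, as 10 windows of 250 bases before a start annotated there. The gene positions given below come from another annotation. By those positions the windows of Smox and Oaz2, both windows of Paox and the Sms window not printed here lie within their genes. The Odc1 window runs past the gene's start. The windows of Odc1 and Smox, whose transcripts were among the most abundant per length at 30 h, and the window of Sms that held an E-box are printed. Capitals mark GC boxes (GGGCGG, or CCGCCC on the other strand) in Odc1 and Smox and the E-box (CACGTG, the same on both strands) in Sms.
Odc1, chr12:17544623-17544872, plus strand: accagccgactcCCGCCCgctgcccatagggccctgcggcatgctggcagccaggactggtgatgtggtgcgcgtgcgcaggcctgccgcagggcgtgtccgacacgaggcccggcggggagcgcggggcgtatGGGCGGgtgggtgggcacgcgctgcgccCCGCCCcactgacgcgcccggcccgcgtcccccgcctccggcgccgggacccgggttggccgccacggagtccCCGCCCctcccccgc
Smox, chr2:131491612-131491861, plus strand: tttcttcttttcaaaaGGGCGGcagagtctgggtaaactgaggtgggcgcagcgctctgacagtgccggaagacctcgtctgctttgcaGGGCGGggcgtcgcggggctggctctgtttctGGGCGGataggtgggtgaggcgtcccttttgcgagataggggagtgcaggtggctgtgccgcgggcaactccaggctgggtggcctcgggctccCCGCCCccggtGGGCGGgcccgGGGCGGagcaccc
Sms, chrX:157492288-157492537, minus strand: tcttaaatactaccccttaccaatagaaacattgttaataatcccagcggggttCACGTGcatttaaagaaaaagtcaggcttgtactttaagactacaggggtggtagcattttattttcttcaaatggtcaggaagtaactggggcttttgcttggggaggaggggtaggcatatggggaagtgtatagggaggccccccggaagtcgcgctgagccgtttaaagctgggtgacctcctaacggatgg
GC boxes were found in 8 of the 10 windows, of genes that were higher and of genes that were lower at 30 h. The Paox windows, both among the 8, share most of their bases. The Smox window held 6 and the Odc1 window 4, as did the second Sms window, which is not printed, and 32.7% of 32851 mouse windows of this length held the motif on either strand. G and C made up from 47.2% of the bases in the printed Sms window to 80% in the Odc1 window. The comparison with all windows did not allow for this. The Sms E-box lies 196 bases before the start, and 6.02% of windows held this motif. The letters AGATAA, recognised by erythroid GATA factors, were on neither strand in any of the 10 windows. Among all windows 9.99% held them, and 10 windows are too few to tell a lack from this share. The TATA box letters TATAA were found on either strand in Amd1 alone of the 8 genes, against 22.8% of all windows. These are matches of letters and show neither binding nor its absence.

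The libraries held 24154481, 19241780 and 19391388 counts at 30 h and 29949173, 29278777 and 27754279 counts at day 0. Summed levels of 9 erythroid markers were 92357 to 132548 CPM at 30 h and 1491 to 1652 CPM at day 0 (CPM, the usual depth-scaled count, here on library totals adjusted by edgeR's TMM factors), and all 9 were higher at 30 h. The cells are labelled as progenitors, but markers of other liver cells were also present. For 7 hepatoblast markers the sums were 759 to 2233 CPM at 30 h and 12679 to 14238 CPM at day 0, for 5 mesenchymal markers 8.78 to 23.2 and 1041 to 1343 CPM, and for 6 endothelial markers 30.3 to 38.4 and 168 to 194 CPM, each with the 30 h range first, and all 18 of these genes were lower at 30 h. Other blood cell markers were mixed. Summed granulocyte markers were 3732 to 5866 CPM at 30 h and 3108 to 3213 CPM at day 0 (3 of 6 higher and 2 lower), megakaryocyte markers 541 to 938 CPM at 30 h and 487 to 582 CPM at day 0 (1 of 5 higher and 2 lower), and macrophage markers 123 to 186 CPM at 30 h and 142 to 159.6 CPM at day 0 (2 of 7 higher and 2 lower). B lymphocyte markers were low, at 11.4 to 14.6 CPM at 30 h and 18.8 to 20.1 CPM at day 0 (2 of 4 lower). None of the 49 markers of 8 cell types was at 0 in every library. The part of these other cells in the values below was not tested, and in bulk RNA fewer cells of a type and less RNA per cell cannot be told apart. The 30 h libraries varied more (biological coefficient of variation 20.3%, against 5.27% at day 0), and 30 h replicate 3 stood apart from replicates 1 and 2 in its counts.

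All 10 genes passed edgeR's test (adjusted p below 0.05 over all 16150 genes), with 6 higher and 4 lower at 30 h. The higher genes were Odc1, Oaz1, Oaz2, Azin1, Sat1 and Smox, and the lower genes were Amd1, Srm, Sms and Paox. The background was wide, since 74.5% of all genes tested were called, 34.4% higher and 40.1% lower. At least 2-fold changes were called for Odc1, Oaz1, Azin1, Sat1 and Smox, higher, and Srm, lower, and 20.6% of all genes were called higher and 28.2% lower by at least that much. For each of the 10 genes, every 30 h library lay on the same side of every day 0 library, as for 79.7% of all genes (36.3% higher and 43.4% lower). The median log2 change of the 10 genes was 0.97, against -0.09 over all genes tested, and the median size of change without regard to sign was 1.68, against 0.99. With libraries scaled by their totals only, the median of all genes was -0.58, higher genes made up 29.1% of all calls in place of 46.1%, and 5 of the 10 genes were called higher, since Oaz2 lost its call and its sign.

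**Figure D1:**
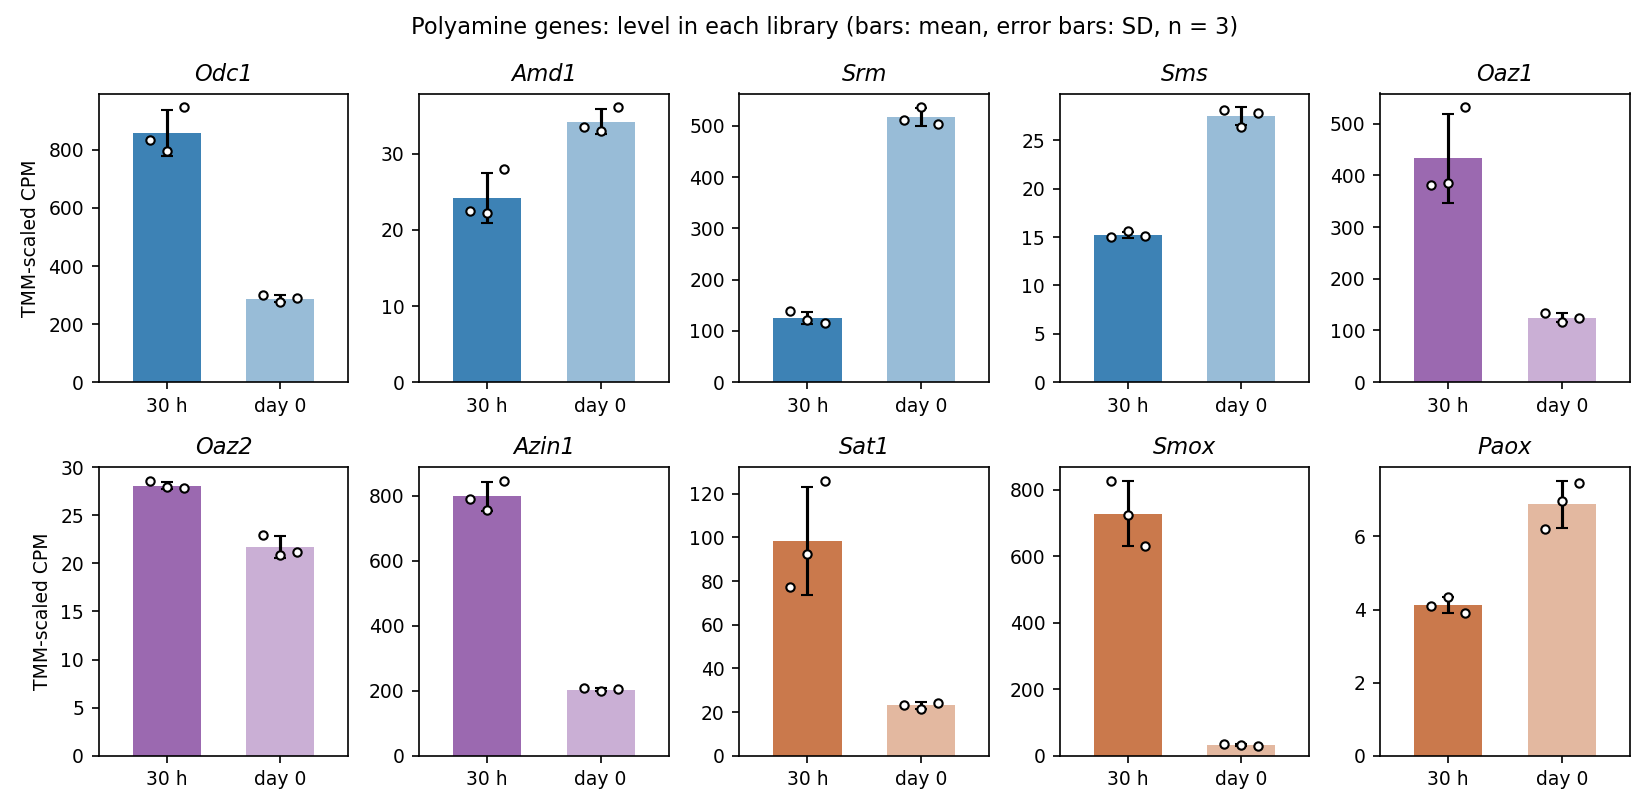
TMM-scaled CPM of the 10 polyamine genes, with a panel for each gene; bars give the group mean, error bars the SD and points the 3 libraries of each group, 30 h left of day 0. No panel has overlapping points between the groups, and Smox, at 632 to 827 CPM against 30.4 to 33.6 CPM, has the widest gap.

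Among the synthesis enzymes, Odc1 was higher at 30 h while Amd1, Srm and Sms were lower. Odc1 (chr12:17544794-17551505, GRCm38, plus strand), encoding ornithine decarboxylase, the first and rate-limiting enzyme, stood at 833, 795 and 947 CPM at 30 h, against 300, 276 and 289 CPM at day 0. Each 30 h library lay well above each day 0 library. The log2 change was 1.57 ± 0.10 (SE), or 2.98-fold, with an edgeR adjusted p of 6.02e-06, and 11% of all genes tested had a larger rise.

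Srm (chr4:148591503-148594993, plus strand), encoding spermidine synthase, fell most of the 10 genes. It was measured at 138, 122 and 116 CPM at 30 h, and at 512, 536 and 503 CPM at day 0. All 30 h libraries were far below all day 0 libraries, by 4.12-fold (log2 change -2.04 ± 0.10, edgeR adjusted p = 1.96e-06). The size of this fall depended on the processing. With each library's trend of level on transcript GC content removed, it was -1.22 on the log2 scale, with an edgeR adjusted p of 2.52e-05. That step also removes any difference between the groups that follows GC content, and the part of base composition was not tested.

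Sms (chrX:157443855-157492287, minus strand), encoding spermine synthase, whose E-box window is printed above, had 15, 15.6 and 15.1 CPM at 30 h and 28.1, 26.4 and 27.8 CPM at day 0. The 30 h libraries agreed closely and were all lower, by 1.80-fold (log2 change -0.85 ± 0.10, edgeR adjusted p = 9.91e-05). Amd1 (chr10:40287458-40302186, minus strand) encodes S-adenosylmethionine decarboxylase, the source of the aminopropyl donor. Its levels of 22.5, 22.2 and 28.0 CPM at 30 h, against 33.5, 33.0 and 36.1 CPM at day 0, gave a fall of 1.41-fold (log2 change -0.50 ± 0.12, edgeR adjusted p = 0.00636). The groups were apart, but 30 h replicate 3 came close to the day 0 range, and Amd1 did not pass a test against a 1.5-fold change (edgeR adjusted p = 0.662).

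Levels of different genes were compared per length, as CPM divided by summed exon length in kb. Summed exons exceed the longest coding transcript by unequal amounts, so shares, orders and ratios between genes depend on this measure. By this measure the summed synthesis transcripts were 339.9 ± 21.3 CPM per kb at 30 h and 422 ± 7.87 CPM per kb at day 0 (mean ± SD, n = 3 each, as for all means below). Their makeup turned over, with Odc1 giving 74.1% ± 2.63 of this sum at 30 h and 20.1% ± 1.04 at day 0. The level of Odc1 relative to Srm was 3.24 ± 0.529 at 30 h and 0.262 ± 0.0175 at day 0. Amd1 relative to Odc1 was 0.0271 ± 0.00123 at 30 h and 0.114 ± 0.00651 at day 0, and Sms relative to Srm was 0.0325 ± 0.00311 and 0.0141 ± 0.000895 at the same times. For each of these ratios the libraries of 30 h and day 0 were separate; the ratios are unaffected by library scaling and are given without a test. The shift of Sms relative to Srm was nearly lost with the GC trend removed, where their log2 changes were -0.98 and -1.22. The summed level, unlike the ratios, depends on library scaling. It also depends on removal of the GC trend, which took Odc1 from 1.57 to 1.84 and Srm from -2.04 to -1.22. The lower sum at 30 h is therefore not settled.

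The regulators of ornithine decarboxylase were all called higher at 30 h, though Oaz2 only narrowly and with the opposite sign when libraries were scaled by their totals. Oaz1 (chr10:80826656-80829290, plus strand), encoding the principal antizyme, had 382, 385 and 532 CPM at 30 h, against 134, 117 and 124 CPM at day 0. Replicate 3 set the upper end at 30 h, and the lowest 30 h library was still far above the day 0 range. The log2 change was 1.79 ± 0.15, or 3.46-fold (edgeR adjusted p = 2.17e-05).

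Azin1 (chr15:38487427-38519266, minus strand) encodes antizyme inhibitor, a relative of ornithine decarboxylase without enzyme activity that binds antizyme. It had 791, 757 and 846 CPM at 30 h, and 208, 198 and 204 CPM at day 0. The 3 libraries of each group lay close together, and the rise was 3.92-fold (log2 change 1.97 ± 0.09, edgeR adjusted p = 1.48e-06), with a larger rise in 7.35% of all genes tested. An antisense gene, Gm49077, overlaps 358 bases of its exons and held at most 9 counts in a library.

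Oaz2 (chr9:65668001-65690300, plus strand), encoding the second widely expressed antizyme, moved least of the 10 genes. Its values were 28.6, 28.0 and 27.8 CPM at 30 h and 23.0, 20.9 and 21.2 CPM at day 0, a rise of 1.30-fold (log2 change 0.37 ± 0.10, edgeR adjusted p = 0.00816). The groups did not overlap, but this call was lost when day 0 replicate 2 or 3 was left out (log2 change 0.33 and 0.34, edgeR adjusted p = 0.0555 and 0.0516). With libraries scaled by their totals only, the log2 change was -0.12 (edgeR adjusted p = 0.324).

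Because Oaz1 and Oaz2 moved unequally, Oaz2 made up 5.39% ± 0.957 of antizyme transcripts per length at 30 h and 12.9% ± 0.265 at day 0. The level of Odc1 relative to the sum of Oaz1 and Oaz2 was 1.54, 1.46 and 1.28 in the 30 h libraries and 1.47, 1.54 and 1.52 in the day 0 libraries, and these ranges overlap. Odc1 relative to Azin1 was 1.94, 1.93 and 2.06 at 30 h and 2.65, 2.56 and 2.60 at day 0, with every 30 h library below every day 0 library. Oaz1 relative to Azin1 was 1.18, 1.25 and 1.54 at 30 h and 1.57, 1.44 and 1.49 at day 0, and there the groups overlapped. These ratios to Azin1 depended on the processing. With the GC trend removed the log2 changes were 1.84 for Odc1, 2.22 for Oaz1 and 1.51 for Azin1, so that Odc1 and Oaz1 both exceeded Azin1. Without that step they were 1.57, 1.79 and 1.97.

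**Figure D2:**
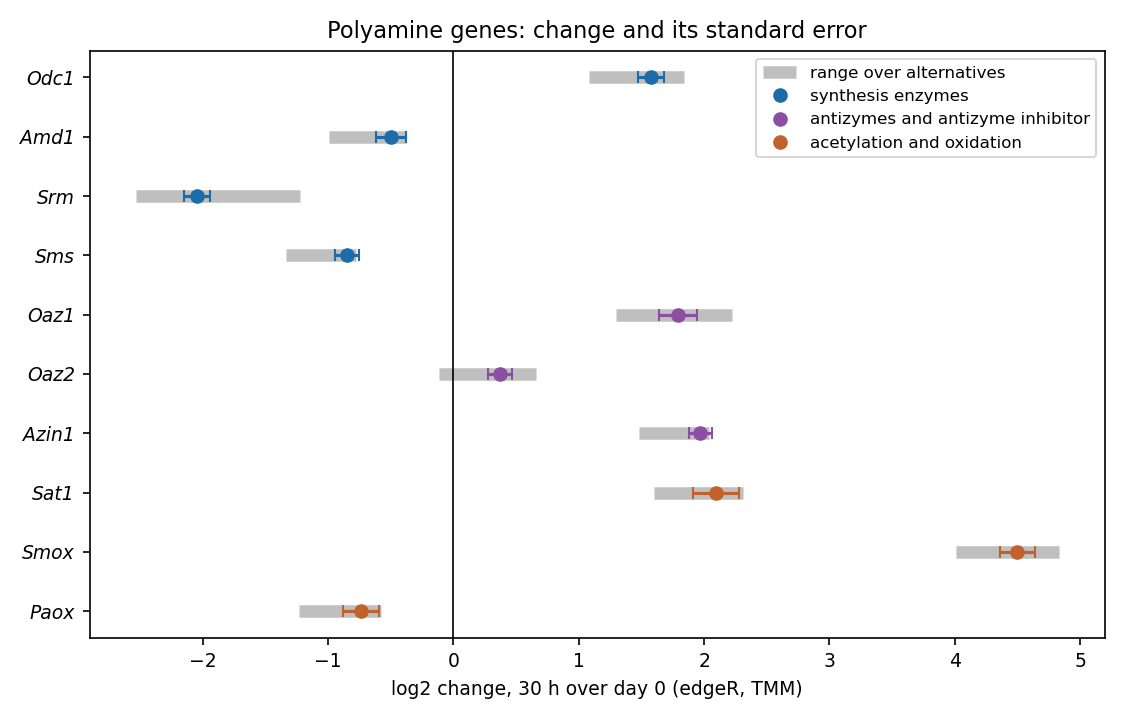
Log2 change of each polyamine gene, 30 h over day 0, from edgeR with TMM scaling; points give the fitted change, whiskers its SE and grey bars the range over 18 other processing settings (17 for Paox). Smox has the largest change at 4.50, and Oaz2, at 0.37, is the gene whose grey bar crosses 0, reaching -0.12 with libraries scaled by their totals only.

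In the breakdown arm, Smox and Sat1 were higher at 30 h and Paox was lower. Smox (chr2:131491496-131525922, plus strand), encoding spermine oxidase, which turns spermine directly into spermidine and releases hydrogen peroxide, had the largest change of the 10 genes. Its levels were 827, 723 and 632 CPM at 30 h, against 33.6, 32.6 and 30.4 CPM at day 0. The groups lay far apart, by 22.6-fold (log2 change 4.50 ± 0.14, edgeR adjusted p = 4.58e-07), and a larger rise was found for 0.817% of all genes tested. No near-identical copy of Smox was found among annotated transcripts, nor of Azin1.

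Sat1 (chrX:155213132-155216449, minus strand) encodes spermidine/spermine acetyltransferase, the rate-limiting enzyme of acetylation. It was measured at 77.3, 92.3 and 126 CPM at 30 h and at 23.4, 21.4 and 24.3 CPM at day 0. The 30 h libraries were spread widely yet all lay above day 0, by 4.27-fold (log2 change 2.09 ± 0.18, edgeR adjusted p = 2.49e-05). Across the 30 h libraries Sat1 was highest, and Smox lowest, in replicate 3.

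Paox (chr7:140115799-140137224, plus strand) encodes the peroxisomal oxidase that acts on acetylated polyamines. It had the lowest level per length of the 10 genes, with 4.10, 4.35 and 3.90 CPM at 30 h and 6.19, 6.98 and 7.47 CPM at day 0. The groups did not overlap, and the fall was 1.67-fold (log2 change -0.74 ± 0.14, edgeR adjusted p = 0.00178), although it did not pass a test against a 1.5-fold change (edgeR adjusted p = 0.0948). Echs1, on the opposite strand, overlaps 142 bases (2.9%) of the Paox exons and held 2111, 1783 and 2151 counts at 30 h and 5518, 5000 and 5104 counts at day 0. Paox itself held 83, 73 and 62 counts at 30 h and 219, 242 and 246 counts at day 0. These counts of both genes are not scaled for depth, which was greater at day 0, so they overstate the falls. No source used here states a strand setting for the counting, and the overlap cannot be assigned with certainty.

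Smox made up 83.5% ± 5.17 of the summed Sat1, Smox and Paox transcripts per length at 30 h, and 46.0% ± 2.48 at day 0. For Sat1 the shares were 16.1% ± 5.16 at 30 h and 46.2% ± 2.15 at day 0. Smox exceeded Paox 223 ± 27.7 times at 30 h and 5.94 ± 0.853 times at day 0.

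**Figure D3:**
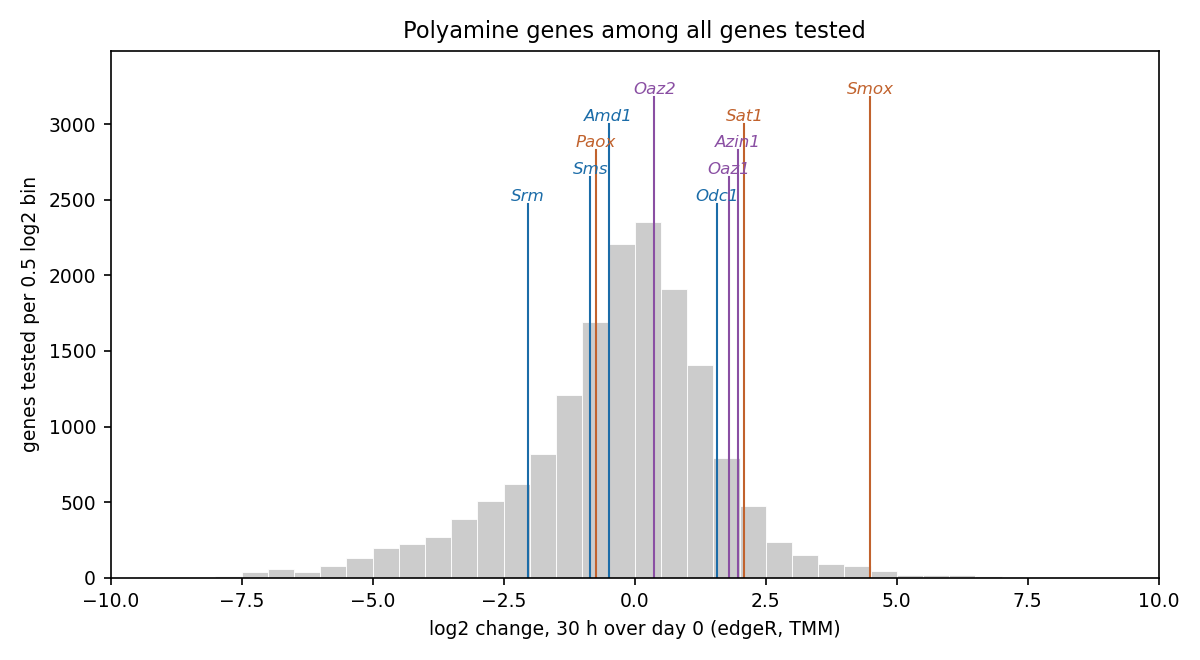
Histogram of the log2 change, 30 h over day 0, of all 16150 genes tested in bins of 0.5, with the 10 polyamine genes as vertical lines (their height is only for the labels). Smox lies in the upper tail, Srm on the lower side at -2.04, and Amd1, Paox, Sms and Oaz2 lie where many genes fall.

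Ordered by level per length, the 10 genes stood differently in the groups. At 30 h the order was Odc1 (252 ± 23.3 CPM per kb), Smox (187 ± 25.0), Oaz1 (169 ± 33.5), Azin1 (128 ± 7.15), Srm (78.4 ± 7.23), Sat1 (35.5 ± 8.92), Oaz2 (9.41 ± 0.129), Amd1 (6.85 ± 0.923), Sms (2.54 ± 0.0462) and Paox (0.839 ± 0.0458). The libraries of Smox and Oaz1 overlapped at 30 h, so their order is not settled. At day 0 the order was Srm (323 ± 10.5 CPM per kb), Odc1 (84.7 ± 3.48), Oaz1 (48.9 ± 3.34), Azin1 (32.5 ± 0.805), Amd1 (9.65 ± 0.47), Sat1 (8.30 ± 0.521), Smox (8.26 ± 0.417), Oaz2 (7.26 ± 0.388), Sms (4.57 ± 0.153) and Paox (1.40 ± 0.131). Sat1 and Smox did not differ beyond their spread at day 0. Spermidine synthase thus headed the list at day 0 and fell behind Odc1, Smox, Oaz1 and Azin1 at 30 h. On summed exons, spermine oxidase was level with Oaz1, behind Odc1, at 30 h and level with Sat1, behind Amd1, at day 0. These places depend on the length used. The longest coding transcript has 1071 bases for Oaz1, 1162 for Sat1 and 2299 for Smox, against summed exons of 2558, 2774 and 3894. The order of Odc1, Smox and Oaz1 at 30 h, and of Amd1, Sat1, Smox and Oaz2 at day 0, is therefore not settled.

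Several of these genes have near-identical copies in the genome (at least 90% identity over 200 bases), most of them processed pseudogenes, and their counts are uncertain to that extent. Copies were found for Odc1 (13), Amd1 (7), Sms (7), Oaz2 (2), Sat1 (2), Srm (1), Oaz1 (1) and Paox (1). Amd1 is the most exposed, since 99.8% of its transcript is matched by a copy, including Amd2, a near-copy of the gene. Counts assigned to the copies were small, at most 3.77% of the summed counts of a gene and its copies in any library, the highest share being that of Sms. Adding them to the parent gene changed no call. Neither result measures reads that match a gene and its copy equally well, since these may have been counted for neither. How such reads were handled was not examined. Levels of genes with copies, and their orders and ratios, remain uncertain for this reason, above all those of Amd1.

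A wider list of 30 polyamine-related genes, chosen by function, held 24 that could be tested, and 6 of these were higher and 12 lower at 30 h (edgeR), against 34.4% higher and 40.1% lower of all genes tested. The median log2 change of the 24 was -0.66. With the GC trend removed 10 were higher and 13 lower, and with libraries scaled by their totals only 6 were higher and 18 lower. Oaz3, the testis antizyme, Amd2, Satl1, Atp13a4, Slc12a8 and Aoc1, encoding diamine oxidase, had 0 to 15 counts in each library and were not tested.

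Ornithine, the substrate of ornithine decarboxylase, is made by arginases. Arg1 rose to 9.97, 20.7 and 43.3 CPM at 30 h, against 5.88, 4.88 and 4.67 CPM at day 0 (log2 change 2.25 ± 0.47, edgeR adjusted p = 0.00284). The 30 h libraries differed widely among themselves, and without 30h replicate 3 the log2 change was 1.57. Arg2, the mitochondrial arginase, was low, with 1.62 ± 0.505 CPM at 30 h and 0.33 ± 0.0179 CPM at day 0 (log2 change 2.27, edgeR adjusted p = 2.86e-04). Oat, encoding ornithine aminotransferase, which links ornithine to glutamate and proline, fell 2.79-fold to 104 ± 11.9 CPM at 30 h, against 289.5 ± 8.46 CPM at day 0 (edgeR adjusted p = 1.21e-05).

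The enzymes around S-adenosylmethionine were mostly lower. Mat2a, the catalytic subunit of the methionine adenosyltransferase found outside adult liver, had 131, 133 and 131 CPM at 30 h and 305, 289 and 304 CPM at day 0 (log2 change -1.19 ± 0.09, edgeR adjusted p = 9.15e-06). Mat2b, its regulatory subunit, moved the other way, with 201 ± 26.6 CPM at 30 h and 106 ± 3.83 CPM at day 0 (log2 change 0.92, edgeR adjusted p = 1.75e-04). Ahcy, which clears S-adenosylhomocysteine, fell by 1.08 on the log2 scale (edgeR adjusted p = 3.13e-05). Mat1a, the adult liver form, was 0.174 ± 0.13 CPM at 30 h and 5.76 ± 0.788 CPM at day 0 (log2 change -5.04, edgeR adjusted p = 8.40e-06), and -5.68 without 30h replicate 3. Agmat, encoding agmatinase, was 0.905 ± 0.496 CPM at 30 h and 12.9 ± 2.26 CPM at day 0 (log2 change -3.85, or -3.20 with the GC trend removed). Both fell beside the 7 hepatoblast markers, among them albumin (Alb) at 219.6 ± 88.2 CPM at 30 h and 4629 ± 465 CPM at day 0, and the part of hepatoblasts in these falls was not tested.

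Each aminopropyl transfer leaves methylthioadenosine, which is salvaged back to methionine. Mtap, the phosphorylase that opens this route, had 35.5, 34.8 and 41.4 CPM at 30 h and 156, 159 and 158 CPM at day 0. The groups were far apart, by 4.23-fold (log2 change -2.08 ± 0.11, edgeR adjusted p = 1.88e-06). The later steps Mri1, Enoph1 and Adi1 were lower too, by 2.36-fold, 2.93-fold and 2.27-fold. Apip, the dehydratase between Mri1 and Enoph1, was the exception, with 110.4, 108 and 143 CPM at 30 h and 34.9, 32.4 and 34.8 CPM at day 0 (log2 change 1.82 ± 0.13, edgeR adjusted p = 1.08e-05). Got1, an aminotransferase with many other roles, did not pass the test (log2 change -0.06 ± 0.16, edgeR adjusted p = 0.759), except with scaling by totals (-0.54, edgeR adjusted p = 0.0203).

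Of the hypusine genes, Eif5a, the main form of the factor, was abundant in both groups, with 2073, 2032 and 2515 CPM at 30 h and 1986, 1866 and 1936 CPM at day 0 (log2 change 0.19 ± 0.11, edgeR adjusted p = 0.148). Dhps and Dohh, which make hypusine from spermidine, were likewise not called (log2 change 0.16 ± 0.13 and -0.23 ± 0.10, edgeR adjusted p = 0.307 and 0.0708). Their values depended on the processing. With the GC trend removed all 3 were positive, at 0.57 for Eif5a, 0.57 for Dhps and 0.89 for Dohh, and with libraries scaled by their totals all 3 were negative, at -0.30, -0.34 and -0.72, and all 3 passed the test in both settings. Dohh was also called lower without 30h replicate 3 (-0.28, edgeR adjusted p = 0.00774) and with upper-quartile scaling (-0.36, edgeR adjusted p = 0.0267). The same held with a stricter filter of 10 CPM in 3 libraries (-0.29, edgeR adjusted p = 0.0369). Eif5a2, the second form, was the gene of this group that passed the test. It had 86.7, 75.8 and 81.2 CPM at 30 h and 16.0, 15.9 and 15.3 CPM at day 0, a rise of 5.16-fold (log2 change 2.37 ± 0.10, edgeR adjusted p = 1.02e-06), and made up 1.73% ± 0.219 of eIF5A transcripts per length at 30 h and 0.385% ± 0.0144 at day 0.

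Among genes of transport, Slc3a2, the heavy chain of amino acid transporters that also takes part in polyamine export, was 463 ± 68.8 CPM at 30 h and 193 ± 1.57 CPM at day 0 (log2 change 1.26, edgeR adjusted p = 4.88e-05). Atp13a2, the lysosomal polyamine exporter, was lower at 53.4 ± 9.5 CPM at 30 h, against 169 ± 3.85 CPM at day 0 (log2 change -1.66, edgeR adjusted p = 2.08e-05, or -0.57 with the GC trend removed). Its relative Atp13a3 did not pass the test (log2 change -0.15 ± 0.13, edgeR adjusted p = 0.327), but was called lower with the GC trend removed (-0.58, edgeR adjusted p = 0.00424), with scaling by totals (-0.64, edgeR adjusted p = 0.00328) and with upper-quartile scaling (-0.29, edgeR adjusted p = 0.0279). Slc18b1, a vesicular polyamine transporter, was 0.99 ± 0.357 CPM at 30 h and 6.68 ± 0.262 CPM at day 0 (log2 change -2.78). Of the paralogues of the 10 genes, Sat2 fell to 1.49 ± 0.875 CPM at 30 h, against 4.74 ± 0.702 CPM at day 0 (edgeR adjusted p = 0.00409), and Azin2 was not called (log2 change -0.20, edgeR adjusted p = 0.403). Azin2 passed in opposite directions with the GC trend removed (0.60, edgeR adjusted p = 0.0269) and with scaling by totals (-0.69, edgeR adjusted p = 0.0180).

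**Figure D4:**
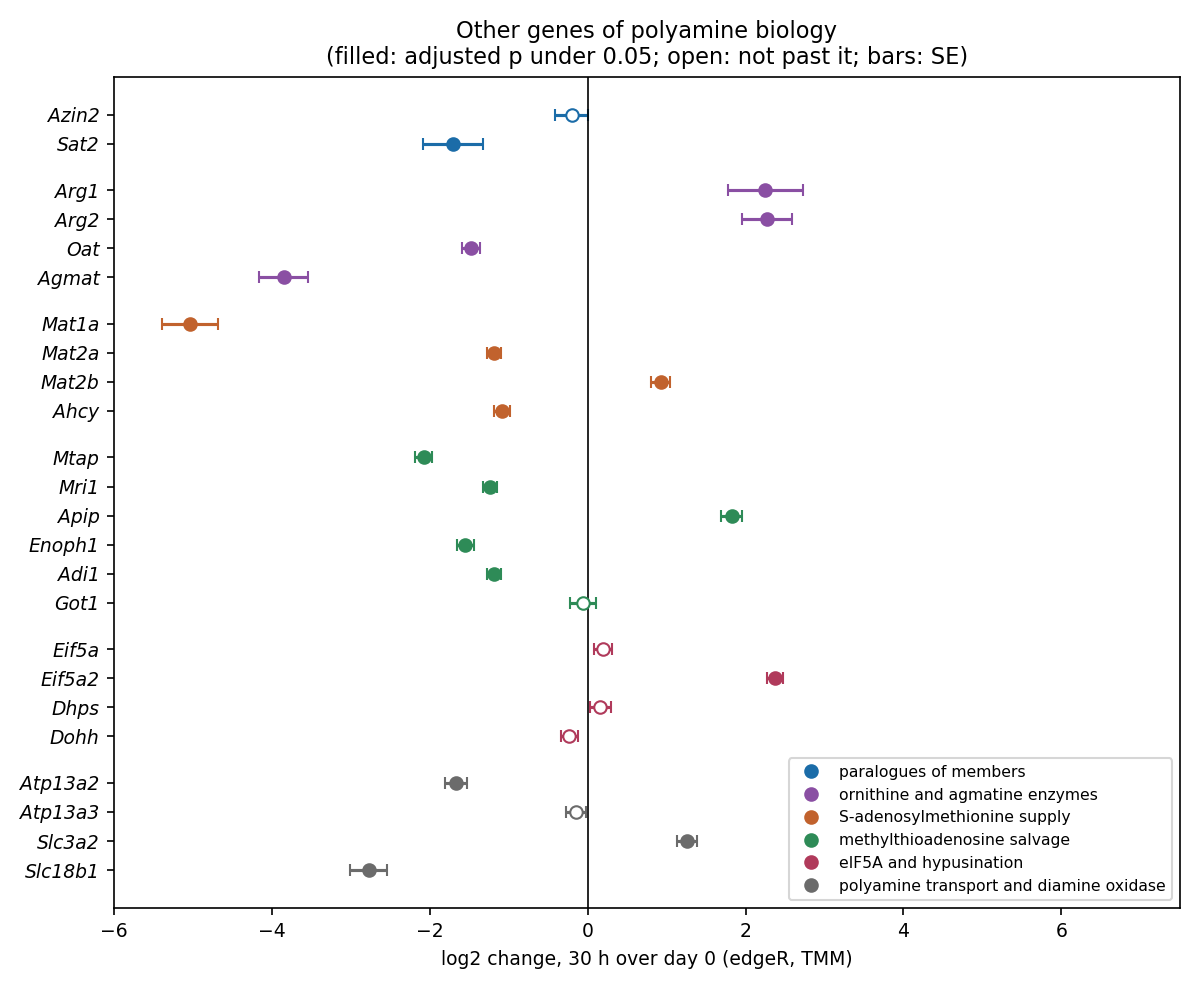
Log2 change, 30 h over day 0, of the 24 tested genes of the wider list, grouped by function, with SE whiskers; filled points passed the edgeR test and open points did not. The salvage enzymes other than Apip and Got1 lie between -1.18 and -2.08, while Apip lies at 1.82 and Eif5a2 at 2.37.

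Myc, a known activator of Odc1 transcription in many cell types through E-boxes, was 101, 93.0 and 71.0 CPM at 30 h and 186, 196 and 190 CPM at day 0. It was thus lower at 30 h in every library, by 2.16-fold (log2 change -1.11 ± 0.14, edgeR adjusted p = 1.63e-04), where Odc1 was higher. The 250 bases of Odc1 printed above hold no CACGTG, which says nothing of sites elsewhere in the gene.

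Across the 6 libraries, the genes whose centred log2 CPM profiles were nearest to that of Odc1, among 9239 genes with a mean of at least 10 CPM, were Tmx1, Vrk2 and Get4, at Euclidean distances of 0.0516, 0.0869 and 0.0932. Their log2 changes were 1.55, 1.53 and 1.56. For Sat1 the nearest were Snhg6, Sec11c and Hmgb2, at 0.0940, 0.114 and 0.134, with log2 changes of 2.11, 2.02 and 2.15. These profiles share the same 6 libraries and are dominated by the difference between 30 h and day 0, so the distances are a description.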

How the data were processed

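RNA-seq gene counts of 6 libraries were analysed, 3 at 30 h and 3 at day 0, grouped by the labels. The authors deposited whole-number counts for each gene, 1 file per library. Tools named in the submitters' processing notes are HTSeq 0.6.1p1, STAR, cutadapt 1.13 and DESeq2, with genome build mm10. The annotation and the strand setting used in counting are not given in the sources used here. Symbols, positions and exon lengths come from GENCODE M21 (GRCm38, the assembly of mm10), which held 54165 of the 54232 gene IDs; 67 were not found.

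Genes were kept by edgeR's filterByExpr defaults and scaled by TMM, with factors of 0.84, 0.873 and 0.82 at 30 h and 1.18, 1.18 and 1.19 at day 0. The test was edgeR's robust quasi-likelihood F test (edgeR 4.0.16, R 4.3.3), Benjamini-Hochberg adjusted over all 16150 genes, with a threshold of 0.05. Standard errors were derived from the F statistic. Levels per length are CPM per kb of summed exons, used in place of the TPM first planned; ratios within a library are the same on both scales. The fit was also run on simulated data, but no outcome is given here, so this is no support for the calls. Sampling noise did not account for the differences between replicates (chi-square per degree of freedom 4.29 to 99.8, the highest involving 30 h replicate 3), so none was counted as a copy. Copies were sought by sequence (at least 90% identity, 200 aligned bases and 10% of the transcript).

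The 10 genes, the wider list, the marker lists and the alternatives were chosen with earlier results of these data known. Named genes are the 10 genes, the wider list, Myc, and the 3 nearest profiles to Odc1 and Sat1; Echs1 was named for its overlap with Paox and Alb as an example of its marker list, both after values were seen. Alternatives were 4 other scalings, 2 other filters, DESeq2 1.42.0, limma-trend (limma 3.58.1, prior count 2), the replicate number as a block, a minimum change of 1.5-fold as the null, removal of each library's GC trend, copies added to their parent, and each library left out.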

Additional observations from a re-analysis of the deposited data

How the results depend on the processing

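Of the 10 genes, Odc1, Srm, Sms, Oaz1, Azin1, Sat1 and Smox kept their direction and call in all 18 alternatives. Amd1 and Paox lost their call only in the test against a 1.5-fold change, which left 2 of the 10 genes lower. A stricter filter of 10 CPM in 3 libraries left Paox untested. Oaz2 reversed to -0.12 with scaling by library totals only (edgeR adjusted p = 0.324) and lost its call with upper-quartile scaling (log2 change 0.24, edgeR adjusted p = 0.0652), with no filter (0.28, edgeR adjusted p = 0.0870), against a 1.5-fold change (edgeR adjusted p = 1), and without day 0 replicate 2 or 3. Over all genes, scaling by totals only gave 3601 higher, and the stricter filter, which tested 9871 genes, gave 3649 higher and 3926 lower, against 5553 and 6483. Removing the GC trend gave 10 higher genes in the wider list in place of 6, and scaling by totals only gave 18 lower in place of 12; the causes were not tested. Leaving out each library in turn gave 5041 to 6233 higher and 5976 to 7008 lower of all genes, 5 to 6 higher and 4 lower of the 10 genes, and 6 higher and 12 to 13 lower in the wider list. The labels do not say whether replicate numbers pair the libraries. Correlations of same-numbered libraries were -0.105, 0.105 and -0.029, which with 3 libraries in each group cannot settle it. With the replicate block 5254 genes were higher and 6277 lower, with all 10 calls unchanged. Fewest counts lay behind Paox (62 to 246 per library); the SE of the log2 change was largest for Sat1, at 0.18.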
